A study of Mus musculus with 29 samples.

Results

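The 10 glycolysis enzymes described here are Hk1, Gpi1, Pfkl, Aldoa, Gapdh, Pgk1, Pgam1, Eno1, Pkm and Ldha. They were taken as the rows of 2 deposited count tables whose Ensembl identifiers carry these symbols, 10 of 38924 genes in the table of mouse blood stem and progenitor cells and 10 of 18194 genes in the table of mouse niche cells. LSK cells (negative for lineage markers, positive for Sca-1 and Kit) had regenerated after transplantation, in a wild-type (WT) niche in 6 libraries and in a niche haploinsufficient for Wnt5a, with 1 working copy of the gene for a secreted WNT signal, in 5 libraries. From the niche, EC (endothelial), OBC (osteoblastic) and MSC (mesenchymal) cells were sorted, with 3 WT and 3 Wnt5a libraries each. All 29 libraries carry the strain label 129Ly5.1. The genotype belongs to the niche and not to the LSK cells. The sources used here do not give the Wnt5a allele, the ages, the number of animals behind a library or whether EC, OBC and MSC libraries share animals, so p-values measure the spread between these libraries, which may in part be technical.

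Glycolysis splits glucose into pyruvate in the cytosol, with a net gain of ATP and NADH. Hexokinase traps glucose in the cell, phosphofructokinase commits it to the pathway, aldolase splits the sugar, the lower steps harvest ATP and NADH, and lactate dehydrogenase turns pyruvate into lactate so that NADH is oxidised again. Quiescent blood stem cells in the bone marrow are known for relying on glycolysis more than on respiration. Many genes of the pathway have left processed pseudogenes, intron-free copies of their messenger RNA, elsewhere in the mouse genome.

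These copies bear on where reads of the 10 enzymes can be counted, so the shared sequence is shown first. The share of 50-base windows of each enzyme's GENCODE transcript that occurs without a mismatch in a transcript of another gene was 82.5% for Gapdh, 72.2% for Eno1, 68.0% for Pgk1, 41.5% for Pgam1, 34.4% for Pkm, 19.3% for Gpi1, 16.6% for Ldha, 13.5% for Aldoa, 0.0543% for Pfkl and 0 for Hk1. The most widely shared coding window of Gapdh lies in exon 4, at chr6:125162898-125162947 (GRCm38, minus strand), and occurs in 83 other genes. For Pgk1 the junction of exons 1 and 2 is shown, with exon 2 in capitals, because it marks what a copy lacks. In the gene the 2 pieces lie at chrX:106187286-106187315 and chrX:106192007-106192036 (plus strand), with an intron of 4691 bases between them. The same 60 bases stand unbroken in the pseudogenes Pgk1-rs7 (chr12:10900147-10900206, minus strand) and Gm5537 (chr3:58104153-58104212, minus strand).
Gapdh exon 4: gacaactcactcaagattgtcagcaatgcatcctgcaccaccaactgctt
Pgk1 exons 1 and 2: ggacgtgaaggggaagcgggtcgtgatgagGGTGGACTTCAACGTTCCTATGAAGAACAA
Pgk1-rs7: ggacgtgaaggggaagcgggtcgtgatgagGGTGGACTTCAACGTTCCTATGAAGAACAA
Gm5537: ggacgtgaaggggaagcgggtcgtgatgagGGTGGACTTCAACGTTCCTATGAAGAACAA

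All 1255 bases of Pgk1-rs7 and all 1252 bases of Gm5537 are contained in the Pgk1 messenger RNA. A short read from the stretch shown therefore matches 3 places equally well. A copy was defined as another gene with at least 100 such windows in common with the enzyme. In the 11 LSK libraries together, Gapdh held 605 reads and its 78 copies in the table held 12033, so 4.79% of the combined reads stood on Gapdh itself. Eno1 held 576 reads (15.5%) against 3147 on Eno1b and Gm4735. Pgk1 held 2271 reads (31.2%) against 5007 on its pair of pseudogenes. Pgam1 held 3504 (73.5%) against 1262 on Pgam1-ps2 and Pgam1-ps1, and Gpi1 held 3144 (78.9%) against 842 on Gm1840. Pkm had 3 copies by this definition, Gm6560 with 617 windows in common, Gm6992 with 145 and Gm49759 with 120, and Ldha had 1, Gm5452 with 110. None of these has a row in either count table under its GENCODE identifier. Adding copies to their genes therefore could not change the counts of Pkm and Ldha. Hk1, Pfkl and Aldoa had no copy. The sources used here do not give how reads that match several places were treated, so the rows of Gapdh, Eno1, Pgk1, Pgam1, Gpi1, Pkm and Ldha are uncertain as levels of those genes.

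**Figure D1:**
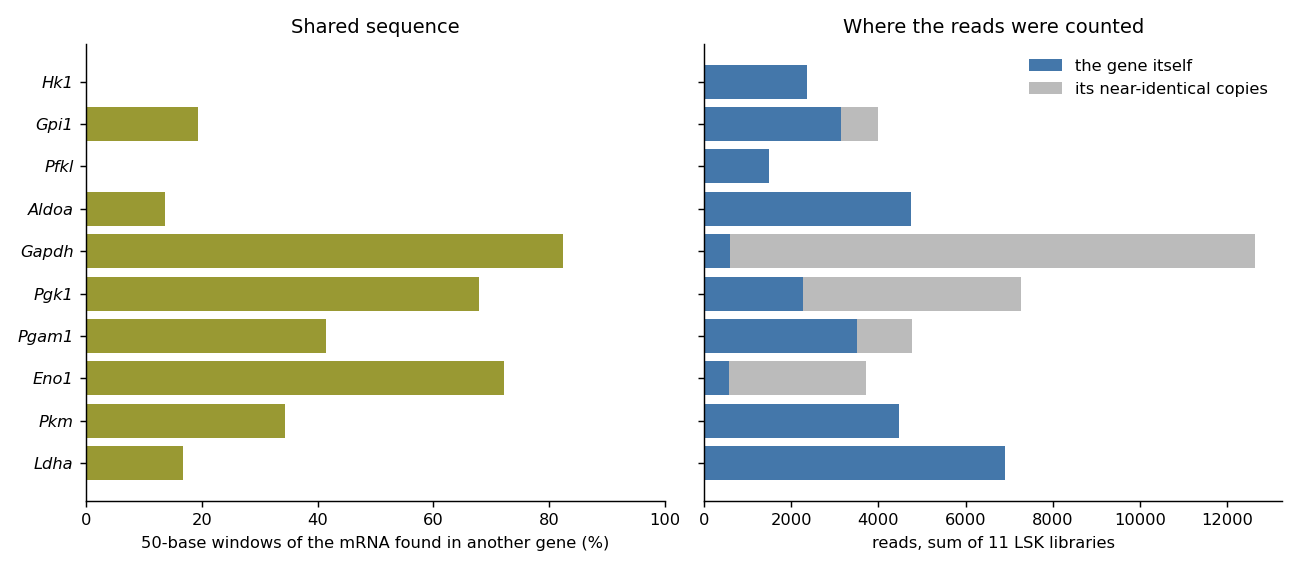
For each enzyme, the left bars give the percentage of 50-base windows of its messenger RNA found in another gene. The right bars give reads summed over 11 LSK libraries, on the gene itself (blue) and on near-identical copies with LSK counts (grey). Gapdh stands out with 82.5% shared windows and 605 reads on the gene against 12033 on copies.

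LSK libraries held 1254553 to 5775459 reads and niche libraries 10635 to 117989 UMIs (unique molecular identifiers, which count molecules). All 10 stem and progenitor markers were detected in LSK cells of both groups, and their summed level was 2459.9 to 3545 CPM (counts scaled to a common library total, here and for UMIs in the niche). Summed B and plasma cell markers in LSK ran from 2029.5 to 11876 CPM in WT and from 2754 to 41120.4 in Wnt5a. In the niche, endothelial markers summed to 7551 to 13968 CPM in EC, but also to 10686 to 11325 in MSC WT, within the range of EC, and to 5075 to 7400.4 in MSC Wnt5a. Osteoblast markers summed to 6394 to 18246 CPM in OBC WT (10 of 10 detected) and 3206 to 6201 in OBC Wnt5a (9 of 10, with Runx2 at 0), against at most 3627 in EC and MSC. Mesenchymal markers summed to 6531 to 16251 in MSC and to at most 4589.8 in EC and OBC, and the marker Pdgfra was at 0 in OBC. Erythroid markers (8 of 8 detected in each niche group) summed to 19158 to 244486 CPM in EC WT and 38274 to 63424 in EC Wnt5a. They summed to 34844 to 66291 in OBC WT, 52870 to 120356 in OBC Wnt5a, 39195 to 64863 in MSC WT and 45299 to 79357 in MSC Wnt5a. All libraries are bulk, so fewer cells of a type and less RNA per cell cannot be told apart.

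In LSK cells all 10 enzymes passed the low-count filter, and none differed between Wnt5a and WT niches at an adjusted p under 0.05 with edgeR's quasi-likelihood test. Over all 13098 genes tested, 3 passed, a background of 0.0229%. At an unadjusted p under 0.05 the comparison had 1 enzyme (Eno1) and 2414 of all genes, and DESeq2 and limma voom also called 0 of the 10. The log2 fold changes (Wnt5a over WT) were positive for 8 enzymes and negative for 2, with a median of 0.20 against 0.021 over all genes, of which 6776 were positive. The 8 positive values became 7 with median-of-ratios scaling, 6 with library totals alone and 5 when copies were added to their genes. Within each enzyme the ranges of the 6 WT and 5 Wnt5a libraries overlapped, where 2.81% of all genes tested had ranges that did not.

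**Figure D2:**
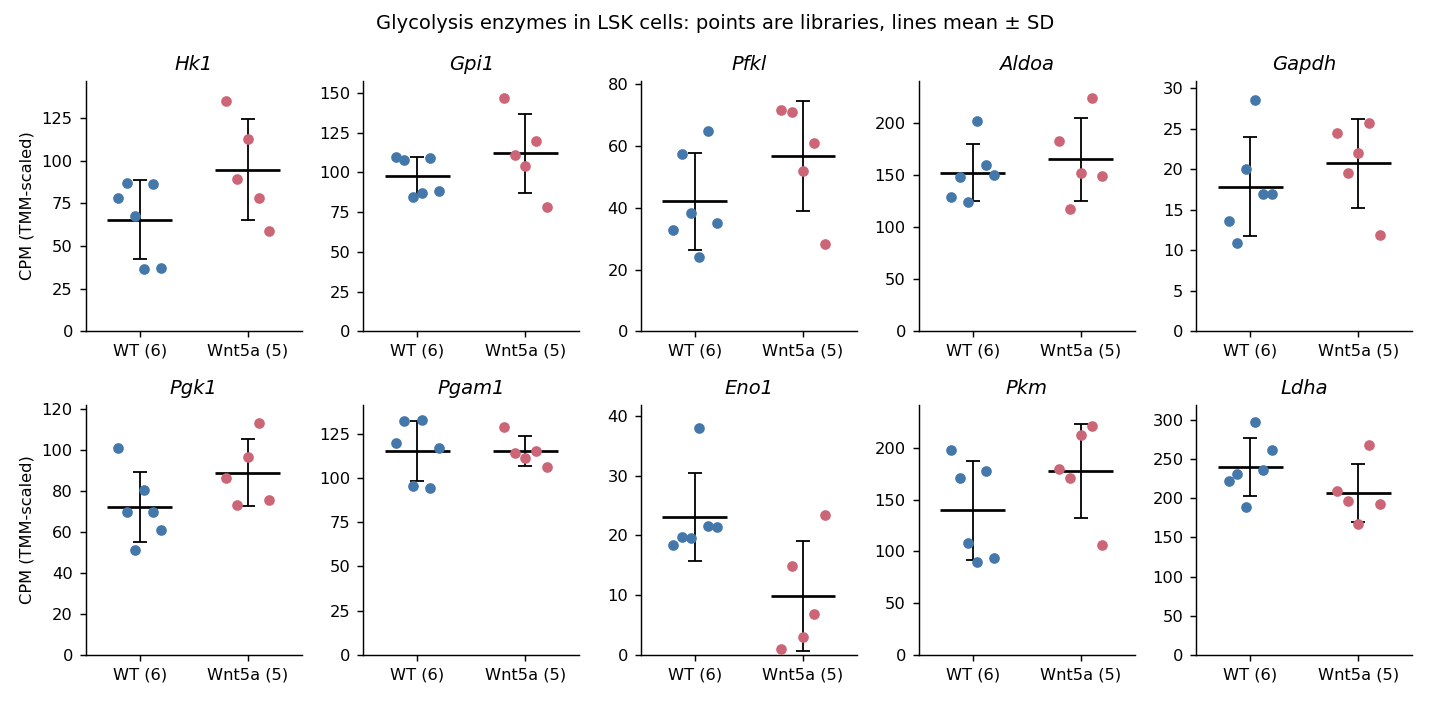
Each panel is an enzyme, with CPM on TMM-scaled library totals on the y axis, 1 point per LSK library (WT niche, n = 6, blue; Wnt5a niche, n = 5, red) and lines at the mean ± SD. The groups overlap in all 10 panels, and Eno1 has 4 of 5 Wnt5a libraries below every WT library.

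Hk1, the hexokinase that phosphorylates glucose in most tissues, lies on chromosome 10 (ENSMUSG00000037012, 62268855 to 62379908, minus strand). Its level was 36.6 CPM in the lowest WT library, 73.0 at the median and 86.7 in the highest. Wnt5a replicates 1 to 5 held 135, 89.3, 112, 78.4 and 58.6 CPM. So 3 of 5 Wnt5a libraries lay above every WT library, and the rest lay within the WT range. The means were 94.7 ± 29.7 (SD, n = 5) and 65.5 ± 23.3 CPM (SD, n = 6). The log2 fold change was 0.54 (SE 0.29, edgeR adjusted p = 0.324), the largest positive value among the 10 enzymes.

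Gpi1 encodes glucose-6-phosphate isomerase, which makes fructose-6-phosphate (ENSMUSG00000036427, chromosome 7, 34201330 to 34230336, minus strand). WT libraries ran from 84.7 CPM through a median of 98.2 to 109.6. In Wnt5a the values were 147, 111, 104, 119.9 and 78.0 CPM. Replicates 1, 2 and 4 exceeded every WT library and replicate 5 was below all of them (log2 fold change 0.20, SE 0.19, edgeR adjusted p = 0.613).

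Pfkl, the liver-type subunit of phosphofructokinase and thus of the committing step, is on chromosome 10 (ENSMUSG00000020277, 77986947 to 78010083, minus strand). Its WT values ran from 24.2 CPM through a median of 36.7 to 65.1. The Wnt5a libraries held 71.7, 71.0, 52.0, 61.1 and 28.2 CPM, 2 of them above every WT library. The log2 fold change was 0.43 (SE 0.31, edgeR adjusted p = 0.470). Aldoa, the aldolase that splits fructose-1,6-bisphosphate, is on chromosome 7 (ENSMUSG00000030695, 126795234 to 126800751, minus strand). It was at 124 CPM in the lowest WT library, 149 at the median and 201 in the highest, and at 183, 117, 152, 223 and 149 CPM in Wnt5a replicates 1 to 5. Wnt5a had both the lowest and the highest library. Its log2 fold change was 0.11 (SE 0.19, edgeR adjusted p = 0.790) and turned to -0.074 with library totals alone.

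The middle steps are those whose genes share most sequence with copies. Gapdh, the dehydrogenase that yields NADH, is on chromosome 6 (ENSMUSG00000057666, 125161715 to 125166467, minus strand). Its row held 10.9 to 28.5 CPM in WT (median 16.9) and 24.5, 19.5, 22.0, 25.6 and 11.9 CPM in Wnt5a. No Wnt5a library left the WT range (log2 fold change 0.21, SE 0.35, edgeR adjusted p = 0.792). Its levels are those of a thinly counted gene, although this enzyme is among the most abundant in most cells.

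Pgk1, phosphoglycerate kinase, gains the first ATP of the pathway (ENSMUSG00000062070, chromosome X, 106187100 to 106203699, plus strand). WT libraries held 51.1 to 101 CPM with a median of 69.6, and Wnt5a libraries held 86.2, 73.3, 96.6, 113 and 75.4 CPM. Only Wnt5a replicate 4 exceeded the WT range (log2 fold change 0.31, SE 0.22, edgeR adjusted p = 0.472). Pgam1, the mutase that moves the phosphate of 3-phosphoglycerate, is on chromosome 19 (ENSMUSG00000011752, 41911923 to 41918660, plus strand). It was the enzyme with the closest means, 115 ± 8.33 CPM in Wnt5a (SD, n = 5) and 115 ± 17.03 in WT (SD, n = 6). Its libraries ran from 94.1 to 133 CPM in WT, and Wnt5a replicates held 129, 114, 111, 115 and 106 CPM, all inside that range (log2 fold change 0.00022, SE 0.17).

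Eno1, alpha-enolase, makes phosphoenolpyruvate and is on chromosome 4 (ENSMUSG00000063524, 150236721 to 150248879, plus strand). It had the widest difference of the 10. WT replicates 1 to 6 held 18.4, 19.7, 19.5, 38.0, 21.6 and 21.5 CPM, and Wnt5a replicates 1 to 5 held 1.03, 14.9, 3.06, 6.79 and 23.4 CPM. Behind these stand 23 to 132 reads in a WT library and 3, 52, 5, 9 and 53 reads in the Wnt5a libraries. Replicates 1 to 4 of Wnt5a were below all WT libraries, while replicate 5 was above 5 of the 6. The means were 9.83 ± 9.24 (SD, n = 5) and 23.1 ± 7.40 CPM (SD, n = 6). The log2 fold change was -1.22 (SE 0.57, edgeR adjusted p = 0.270), and it ran from -1.81 (without Wnt5a replicate 5, edgeR adjusted p = 0.0610) to -0.92 (without Wnt5a replicate 1, adjusted p = 0.352).

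Pkm, pyruvate kinase, gains the last ATP of the pathway (ENSMUSG00000032294, chromosome 9, 59656368 to 59679375, plus strand). WT libraries ran from 89.8 CPM through a median of 139.8 to 198. In Wnt5a the 5 values were 179, 171, 213, 221 and 106 CPM, with replicates 3 and 4 above every WT library. The log2 fold change was 0.35 (SE 0.25, edgeR adjusted p = 0.465). Ldha, the lactate dehydrogenase subunit favouring lactate, is on chromosome 7 (ENSMUSG00000063229, 46841475 to 46855627, plus strand). It was at 188 CPM in the lowest WT library, 234 at the median and 297 in the highest, against 209, 197, 167, 268 and 193 CPM in Wnt5a. Only Wnt5a replicate 3 lay below the WT range, and the log2 fold change was -0.21 (SE 0.17, edgeR adjusted p = 0.519).

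Counting the copies with their genes changed which way some enzymes pointed. The sum of Gapdh and its copies was 348 to 643 CPM in WT and 372, 348, 395, 433 and 318 CPM in Wnt5a, and its log2 fold change was -0.18 (SE 0.18, edgeR adjusted p = 0.612) in place of 0.21. Gpi1 with Gm1840 went from 0.20 to -0.15 (SE 0.16, edgeR adjusted p = 0.652). The Pgk1 sum was at 0.034 (SE 0.18) and the Pgam1 sum at -0.039 (SE 0.16). For Eno1 with Eno1b and Gm4735 the difference shrank to -0.30 (SE 0.21, edgeR adjusted p = 0.441), with 103 to 194 CPM in WT and 101, 104, 81.3, 101 and 131 CPM in Wnt5a. With sums in place of single rows, the median of the 10 log2 fold changes was -0.0023 and 5 were positive.

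**Figure D3:**
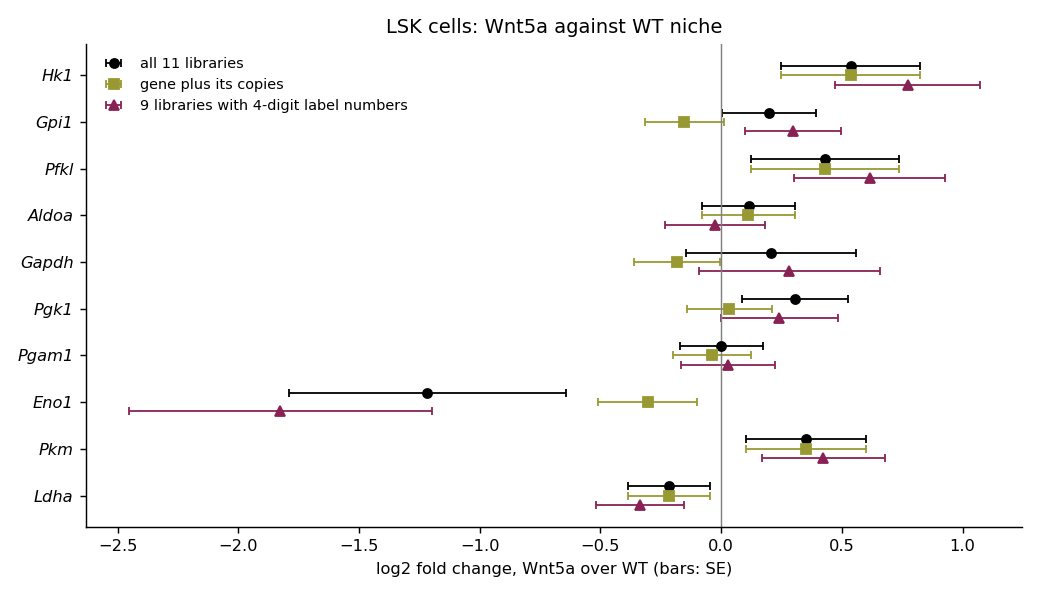
Log2 fold change (Wnt5a over WT, x axis) of each enzyme in LSK cells with its SE as a bar, for all 11 libraries (black circles), for the gene plus its copies (olive squares) and for the 9 libraries with 4-digit label numbers (purple triangles). Eno1 moves from -1.22 to -0.30 once its copies are added, and Gpi1 and Gapdh change sign.

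Of 19 copies with over 200 reads in LSK cells, 5 had at least 4 Wnt5a libraries below all WT libraries, namely Gm1840, Pgam1-ps1 and the Gapdh copies Gm11960, Gm12286 and Gm8055. In 1, the Gapdh copy Gm5559, 4 Wnt5a libraries lay above all WT libraries. Of the rest, 8 had 1 to 3 Wnt5a libraries below the WT range, 2 had 1 to 3 above it, 2 had both and 1 had none outside. The groups did not overlap for 2 of the 19, Gm1840 and Gm11960, against 2.81% of all genes tested. For the tally of Wnt5a libraries below or above the WT range, no share over all genes was computed. Gm1840, an intron-free copy of Gpi1 on chromosome 8, held 37 to 203 reads in the WT libraries and 2, 54, 6, 1 and 55 reads in Wnt5a replicates 1 to 5. All 5 Wnt5a libraries were below all 6 WT libraries (0.690 to 24.2 against 25.5 to 56.4 CPM). Pgam1-ps1 held 8 to 72 reads in WT and 2, 7, 1, 0 and 22 reads in Wnt5a. Eno1, Gm1840 and Pgam1-ps1 were thus each lowest in Wnt5a replicates 1, 3 and 4. Eno1b, the copy with most windows in common with Eno1, was even across the same libraries, at 42.4 to 75.7 CPM in WT and 39.7 to 57.3 in Wnt5a. These rows were picked out after their values were seen, and whether the reads were divided differently between genes and copies in some libraries was not tested.

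**Figure D4:**
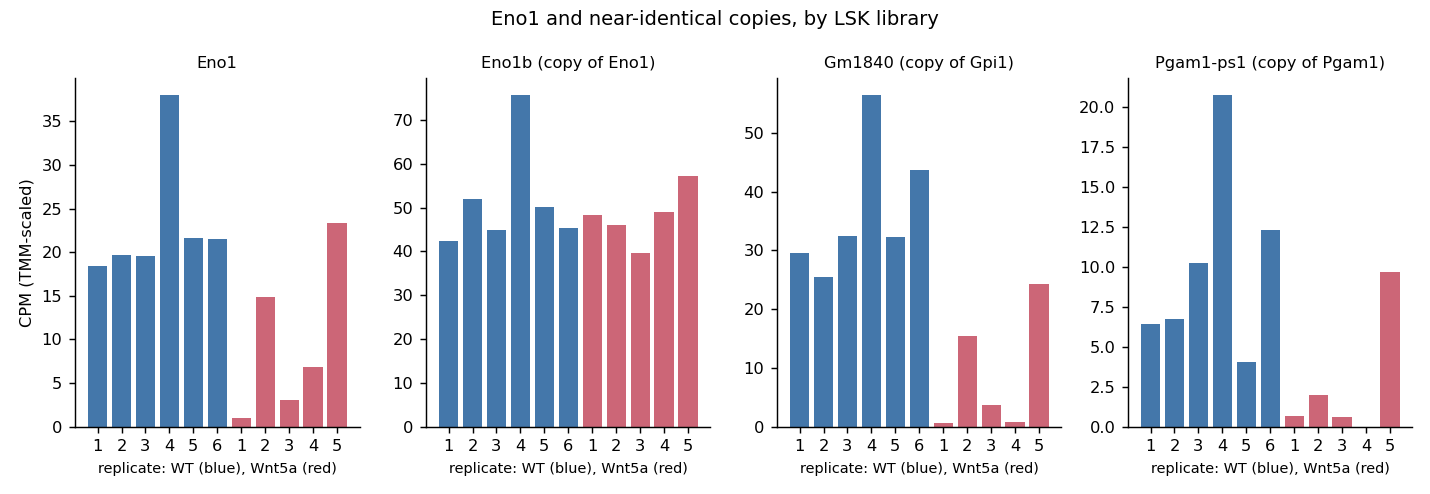
CPM on TMM-scaled totals (y axis, each panel its own scale from 0) in the 6 WT (blue) and 5 Wnt5a (red) LSK libraries for Eno1, for its copy Eno1b, for the Gpi1 copy Gm1840 and for the Pgam1 copy Pgam1-ps1. Eno1, Gm1840 and Pgam1-ps1 are each lowest in Wnt5a replicates 1, 3 and 4, with Eno1 at 6.79 CPM in replicate 4, while Eno1b stays between 39.7 and 75.7 CPM.

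The label numbers of the LSK libraries have 4 digits in all 6 WT libraries and in 3 Wnt5a libraries, and 3 digits in Wnt5a replicates 4 and 5, without a statement of what this means. Among the 9 libraries with 4-digit numbers, Hk1 was at 0.77 (SE 0.30, edgeR adjusted p = 0.119) and Eno1 at -1.83 (SE 0.63, edgeR adjusted p = 0.0881). In that subset 882 of all genes passed, and still 0 of the 10 enzymes. Aldoa turned to -0.024 and Ldha moved to -0.34 (SE 0.18).

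Levels in WT LSK cells were ordered per kilobase of exon length, which takes all annotated exons of a gene together. A single transcript is shorter, at 2027 bases against 5379 for Eno1 and 1420 against 4133 for Gapdh. An order by transcript length was not computed and can differ. Ldha led at 72.4 ± 11.2 CPM per kilobase (SD, n = 6), followed by Pgam1 at 58.1, Aldoa at 52.2, Pgk1 at 32.1, Pkm at 27.9, Gpi1 at 15.1, Hk1 at 7.67, Pfkl at 6.31, Gapdh at 4.31 and Eno1 at 4.30. Neighbours in this order overlapped in their library ranges, except Pkm and Gpi1, and Gpi1 and Hk1. The same order held by mean in Wnt5a, from Ldha at 62.4 ± 11.3 to Eno1 at 1.83 ± 1.72 CPM per kilobase (SD, n = 5), with every pair of neighbours overlapping. The places of Gapdh and Eno1 at the bottom are those of rows that hold 4.79% and 15.5% of the reads counted on them and their copies. Among the 3 enzymes without a copy the order was Aldoa, Hk1 and Pfkl.

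Across the 11 LSK libraries the enzymes did not all vary together. The 45 pairs of enzymes were compared with two-sided permutation tests, and with Pearson's r 4 pairs had a Benjamini-Hochberg adjusted p under 0.05. Hk1 and Pkm had r = 0.84 (permutation p = 0.00075, adjusted 0.0337) and Spearman's rho = 0.68 (permutation p = 0.0247, adjusted 0.139), with r = 0.63 without the 2 libraries farthest from the Hk1 median, 0.90 within the 6 WT libraries and 0.89 within the 9 libraries with 4-digit numbers. Hk1 with Pfkl had r = 0.79 and rho = 0.84, Gpi1 with Pfkl r = 0.80 and rho = 0.77, and Gpi1 with Pkm r = 0.79 and rho = 0.69. Each of these 3 had an adjusted permutation p of 0.0380 for r. By rank no pair passed, the lowest adjusted permutation p for rho being 0.0990.

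Hk1, Gpi1, Pfkl and Pkm, grouped after these values were seen, lay below their own mean over libraries in WT replicates 3, 4 and 6 (mean deviation -0.28, -0.72 and -0.56 on the log2 scale) and in Wnt5a replicate 5 (-0.47). Their deviation was 0.57 in Wnt5a replicate 1 and 0.30 to 0.33 in Wnt5a replicates 2 to 4. These 4 genes and Eno1 (5379 bases), which had the opposite sign at -1.22, have exon lengths above 5000 bases. Over all genes of that length the median log2 fold change was 0.073, against -0.048 for genes up to 2500 bases. With a length trend removed from each library, the median over all genes tested moved from 0.021 to 0.11. Hk1 was at 0.57 (SE 0.26, edgeR adjusted p = 0.230), Pfkl at 0.49 (SE 0.29), Pkm at 0.44 (SE 0.27), Gpi1 at 0.25 (SE 0.20) and Eno1 at -1.17 (SE 0.57), and 0 of the 10 passed. Among the shorter members, Pgk1 moved from 0.31 to 0.51 (SE 0.24) and Pgam1 from 0.00022 to 0.24 (SE 0.18). The part of exon length in these differences was not tested further. Outside the pathway lists, the genes whose log2 CPM followed the mean of the 10 enzymes most closely over the 11 libraries were Eif1 (Pearson r = 0.89), Fez2 (0.89), Klhdc3 (0.86), Sulf2 (0.85) and Nlrx1 (0.84), given as a description. The search ran over the genes with a symbol among the 13098 tested. How high r comes by such a selection alone was not computed.

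The steps around the 10 enzymes were read from 5 further lists, and in LSK cells none of their genes passed edgeR's test with the low-count filter. An unadjusted p under 0.05 was reached by 2414 of all 13098 genes tested, the background for such counts in these lists. Without the filter 343 of all 30413 genes passed, and 4 of these lists. They were Pgls (edgeR adjusted p = 0.0311) and Sdhc (0.0420), lower in Wnt5a, and Myc (0.00181) and Epas1 (0.0451), higher in Wnt5a. Of 19 other glycolysis enzymes, 10 were tested, 4 positive and 6 negative (0 with an unadjusted p under 0.05). Those with the smallest p were Tpi1, triose-phosphate isomerase, at -0.28 (SE 0.16, edgeR adjusted p = 0.363) and Pfkp, the platelet-type phosphofructokinase, at 0.40 (SE 0.26, adjusted p = 0.432). In glucose and lactate transport and control 21 of 24 were tested, with 14 positive and 2 under an unadjusted p of 0.05, namely Pdhb, a pyruvate dehydrogenase subunit, at -0.69 (SE 0.23, adjusted p = 0.146) and Mpc2, a mitochondrial pyruvate carrier, at 0.54 (SE 0.22, adjusted p = 0.214).

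In the pentose phosphate branch, which makes NADPH and ribose, all 7 genes were tested, with 5 negative and 4 under an unadjusted p of 0.05. Pgls, the lactonase of its oxidative arm, was at 33.2 to 118 CPM in Wnt5a and 105 to 182 in WT (log2 fold change -0.93, SE 0.28, edgeR adjusted p = 0.116). Taldo1, transaldolase, was at 56.4 to 94.8 CPM in Wnt5a and 88.4 to 207 in WT (-0.78, SE 0.24, adjusted p = 0.122). All 17 citric acid cycle genes were tested (6 positive, 3 under an unadjusted p of 0.05), with Suclg2 at 0.61 (SE 0.19, adjusted p = 0.126) and Sdhc at -0.84 (SE 0.28, adjusted p = 0.137). Of 19 hypoxia and glycolysis regulators 16 were tested, 11 positive and 2 under an unadjusted p of 0.05. Nearest to the threshold came Myc, a transcription factor that drives glycolytic genes, at 216 to 586 CPM in Wnt5a and 142 to 203 in WT (1.13, SE 0.24, edgeR adjusted p = 0.0564). Every Wnt5a library lay above every WT library for Myc, where 2.81% of all genes tested had no overlap. Myc passed in 5 of 20 alternatives. These were DESeq2 (adjusted p = 0.00252, 655 genes called), no filter (0.00181, 343 genes) and the length trend removed (0.0406, 144 genes). The others were the 9 libraries with 4-digit numbers (0.0147, 882 genes) and Wnt5a replicate 5 left out (0.00589, 1114 genes). The main fit called 3 genes and limma voom 0. Hif1a, the oxygen-sensing factor, was at 0.47 (SE 0.19, adjusted p = 0.200).

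In the niche table the 10 enzymes were at the edge of detection. Together they took 34 to 80 UMIs in an EC WT library, 9 to 71 in EC Wnt5a, 18 to 35 in MSC WT, 5 to 29 in MSC Wnt5a, 0 to 7 in OBC WT and 3 to 6 in OBC Wnt5a. As shares of all UMIs these are 0.0357 to 0.0709% in EC WT, 0.0485 to 0.0665% in EC Wnt5a, 0.0482 to 0.0694% in MSC WT, 0.0250 to 0.0623% in MSC Wnt5a, 0 to 0.0235% in OBC WT and 0.0219 to 0.0341% in OBC Wnt5a. The OBC WT library at 0 had 0 of 26088 UMIs, which allows a share of up to 0.0115%. Every OBC library was below every EC library, while MSC and OBC overlapped. Of 1099 single genes tested on TMM-scaled totals, 19.9% had no overlap between the 6 OBC and 6 EC libraries. With library totals alone, as used for these shares, the median log2 difference of those genes was -0.71 in OBC and 0.46 in EC. The gap is therefore not read as particular to the enzymes. None of the 10 enzymes passed the low-count filter, which left 1099 genes, so the test below was made without a filter, over 15930 genes, a choice made after seeing the counts.

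Ldha was the best covered enzyme, with 144 UMIs in 18 libraries. EC WT replicates 13 to 15 held 29, 17 and 12 UMIs and EC Wnt5a replicates 16 to 18 held 2, 27 and 12. MSC WT replicates 1 to 3 held 10, 2 and 8, MSC Wnt5a replicates 4 to 6 held 2, 6 and 10, OBC WT replicates 7 to 9 held 0, 3 and 1, and OBC Wnt5a replicates 10 to 12 held 1 each. Pooled over libraries and scaled to their plain totals, Ldha was at 207 CPM in EC (95% exact Poisson interval 168 to 252), 153 in MSC (108 to 210) and 60.5 in OBC (24.3 to 125), intervals that cover counting error only. EC over OBC was 3.42 (1.60 to 8.72) and EC over MSC 1.35 (0.920 to 2.02). On plain totals the median log2 difference of 1099 tested genes from the other populations was 0.46 in EC and -0.71 in OBC. The ratios are therefore not read as particular to Ldha.

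Pkm, whose copies were named above, followed with 87 UMIs. It held 7, 9 and 28 UMIs in EC WT, 1, 11 and 4 in EC Wnt5a, 8, 6 and 5 in MSC WT, 1, 2 and 4 in MSC Wnt5a, 0, 1 and 0 in OBC WT, and 0 in all 3 OBC Wnt5a libraries. Its only OBC molecule stands among 115672 UMIs. Pooled levels on plain totals were 125 CPM in EC (95.6 to 161), 105 in MSC (68.4 to 154) and 8.65 in OBC (0.219 to 48.2). EC over OBC was 14.5 (2.50 to 582), a ratio that includes the same shift of genes in general.

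Without the filter, 2 of 10 enzymes were higher in EC than in the mean of OBC and MSC, where 4.73% of all genes were called higher. They were Pkm (log2 difference 2.27, SE 0.67, edgeR adjusted p = 0.0182) and Ldha (1.33, SE 0.40, adjusted p = 0.0211). In OBC the same pair was lower than in the mean of EC and MSC, where 3.69% of all genes were called lower. Pkm was at -3.99 (SE 1.06, edgeR adjusted p = 0.00583) and Ldha at -1.77 (SE 0.56, adjusted p = 0.0336). Both comparisons use the same 18 libraries. The 4.73% and 3.69% are over all 15930 genes, most of them too thinly counted for the filter. Among the 1099 genes past it, 24.4% were called higher in EC and 26.8% lower in OBC with edgeR. The 2 of 10 are thus not read as particular to the enzymes. For MSC against the others 0 enzymes were called (background 0.395%). There 1 enzyme was at an unadjusted p under 0.05, as were 1088 of all 15930 genes. The calls of Pkm and Ldha in EC and of Ldha in OBC ended with median-of-ratios scaling, library totals alone and DESeq2. Without EC Wnt5a replicate 17 both EC calls ended, as did that of Pkm without EC WT replicate 15 (adjusted p = 0.0763) and that of Ldha without EC WT replicate 13 (adjusted p = 0.0930). The OBC call of Ldha ended without OBC WT replicate 7 or 9, any of the 3 OBC Wnt5a replicates or MSC Wnt5a replicate 6, with adjusted p from 0.0508 to 0.124. That of Pkm held under each of these, with DESeq2 at an adjusted p of 0.0257, and rests on 1 OBC molecule. With limma voom 6 of 10 enzymes were called in OBC (Pkm, Ldha, Aldoa, Gapdh, Pgk1 and Pgam1) and 2 in EC (Ldha and Pkm). The direction of these voom calls was not recorded, nor was the share of all genes that voom called without a filter. With no such background, the 6 and 2 of 10 are not read as a result about the enzymes. Gapdh, Pgk1 and Pgam1 held only 3, 1 and 1 UMIs in all 18 libraries together, so their voom calls are not read as differences in level.

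Between genotypes 0 of 10 enzymes were called without a filter in EC (background 0.0251%), OBC (0.0816%), MSC (0% of genes), the mean over the populations (0.0879%) or the interaction of genotype with population (0.0628%). At an unadjusted p under 0.05 there were 0 in EC, 0 in OBC, 2 in MSC, 1 in the mean and 0 in the interaction. Of all 15930 genes, 600 in EC, 378 in OBC, 739 in MSC, 809 in the mean and 453 in the interaction were under it. The pair in MSC was Hk1, with 0, 0 and 2 UMIs in WT and 1, 4 and 6 in Wnt5a (edgeR adjusted p = 0.848), and Eno1, with 3, 2 and 1 UMIs in WT and 0 in each Wnt5a library (adjusted p = 0.848). For Eno1, the 0 of 114827 UMIs in MSC Wnt5a allow up to 26.1 CPM, against 45.0 (16.5 to 97.9) in MSC WT. In the mean it was Pfkl, at 2 UMIs in MSC WT replicate 1 and 8 in EC WT replicate 15, and in Wnt5a at 2, 6 and 2 in EC, 1, 2 and 0 in OBC and 0, 0 and 3 in MSC (adjusted p = 0.935).

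The other enzymes were thinner or split with copies. Gpi1 had 74 UMIs, 0 to 17 in a library, with 98.2 CPM in EC (72.1 to 131), 80.6 in MSC (49.2 to 124) and 60.5 in OBC (24.3 to 125). Aldoa had 56, with 68.9 CPM in EC (47.4 to 96.8), 80.6 in MSC (49.2 to 124) and 25.9 in OBC (5.35 to 75.8). Eno1 had 11 UMIs against 43 on its copies, and Gapdh 3 against 71. Pgk1 and Pgam1 had 1 UMI each, in the same library, EC WT replicate 13, against 16 on Pgk1-rs7 and 49 on Pgam1-ps2. With copies added, Gapdh was at 115 CPM in EC (86.5 to 149.5, from 55 UMIs), 76.6 in MSC (46.1 to 119.6) and 0 in OBC, where 0 of 115672 UMIs allow up to 25.9 CPM. Levels were not compared between the Smart-seq2 and UMI tables, which come from different protocols.

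Around the pathway, 9 genes of the 5 further lists passed the filter in the niche. The largest differences between populations were those of Pgls and Tkt, 2 of 3 tested genes of the pentose phosphate branch, with Ddit4 close (-1.82 in OBC). Taldo1, the other tested gene of the branch, was at 0.70 in OBC and -0.41 in EC against the other populations, and was not called. Tkt, transketolase, was at 453, 1115 and 538 CPM in OBC WT and 914, 1331 and 879 in OBC Wnt5a, against 46.3 to 238 in the 6 EC libraries. Pgls was at 554, 511 and 431 in OBC WT and 718, 1121 and 1319 in OBC Wnt5a, against 83.4 to 145 in EC. For both genes every OBC library lay above every EC library, where 19.9% of all 1099 genes tested had no overlap between the 6 OBC and 6 EC libraries. In OBC against the mean of EC and MSC, Tkt was higher by 1.83 (SE 0.29, edgeR adjusted p = 9.21e-07) and Pgls by 2.21 (SE 0.30, adjusted p = 4.61e-08), 2 of 3 tested genes of the branch, where 19.3% of all genes were called higher. In EC both were lower (Tkt -1.46, SE 0.29, adjusted p = 0.000116; Pgls -1.37, SE 0.31, adjusted p = 0.00042), where 15.7% were called lower. In MSC they were at 112 to 192 (Tkt) and 53.2 to 112 (Pgls) in WT, and at 399, 624 and 487 (Tkt) and 310, 151 and 465 (Pgls) in Wnt5a.

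The genotype difference of Tkt in MSC was 1.65 (SE 0.48, edgeR adjusted p = 0.0600) and that of Pgls 1.85 (SE 0.53, adjusted p = 0.0600), with 3 of 3 Wnt5a libraries above 3 of 3 WT libraries for both, and neither passed. In MSC 25.7% of all genes tested had no overlap between genotypes. The call of Tkt was made with the 6 MSC libraries alone (adjusted p = 0.0111), without EC WT replicate 14 (0.0305; Pgls 0.0436) and without EC WT replicate 15 (0.0463). In EC the genotype difference was 0.40 for Tkt (SE 0.46, adjusted p = 0.841) and -0.098 for Pgls (SE 0.48, adjusted p = 0.975). Over the 3 populations the mean difference was 0.85 (SE 0.27, adjusted p = 0.0688) and 0.92 (SE 0.29, adjusted p = 0.0624), and Tkt passed with limma voom (0.0392), without EC WT replicate 14 (0.0213) and without OBC WT replicate 8 (0.0480). The summed level of 8 neutrophil markers also differed between these groups. With all 8 detected in each group, it was 300.3 to 466 CPM in EC WT, 1401 to 2698 in EC Wnt5a, 1205 to 1382 in MSC WT, 2450.1 to 3625 in MSC Wnt5a, 2299.9 to 4701 in OBC WT and 5609.8 to 9103 in OBC Wnt5a. In each genotype the sum was highest in OBC, as were Tkt and Pgls. It was higher in MSC Wnt5a than in MSC WT, as were both genes. The sum was also higher in EC Wnt5a than in EC WT, where neither gene passed. It was higher in MSC WT than in EC WT as well. There Pgls was at 53.2 to 112 CPM in MSC WT and 102 to 134 in EC WT, and Tkt at 112 to 192 and 46.3 to 238. The part of such cells in the levels of Tkt and Pgls was not tested.

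**Figure D5:**
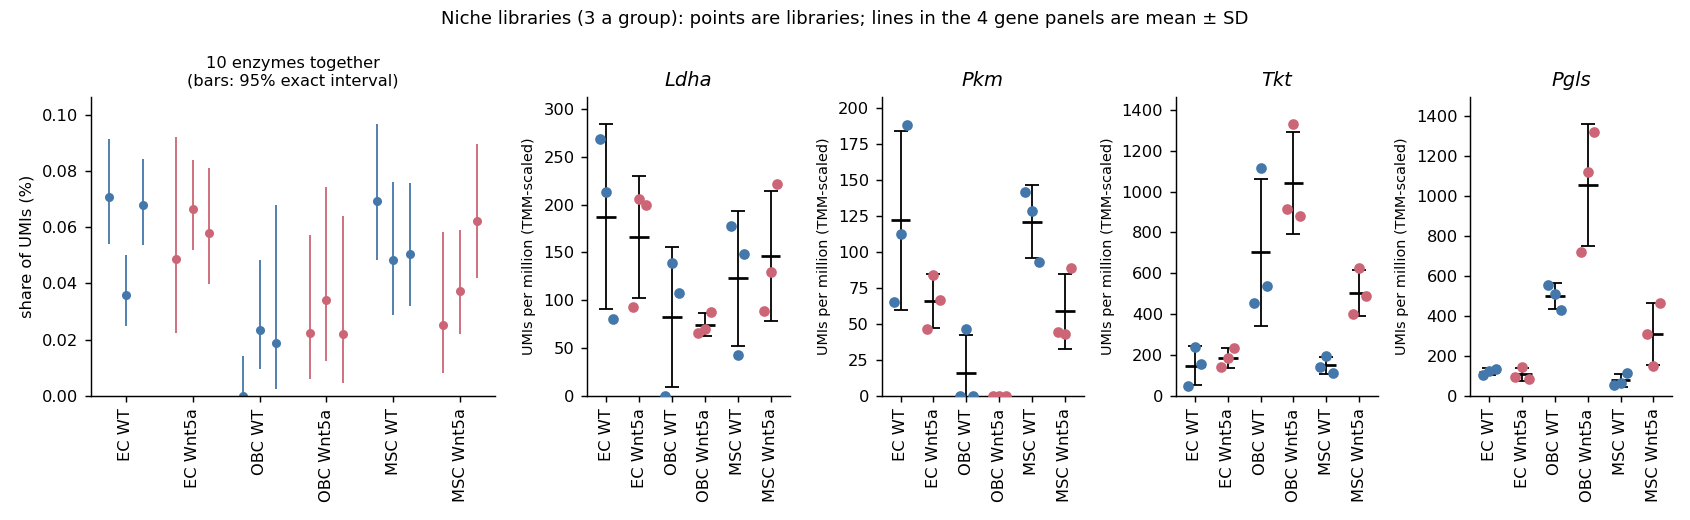
Niche libraries, 3 a group (WT blue, Wnt5a red): the first panel gives the 10 enzymes' share of UMIs (%) with 95% exact binomial intervals, the others CPM on TMM-scaled totals for Ldha, Pkm, Tkt and Pgls with mean ± SD. Pkm is at 0 in all 3 OBC Wnt5a libraries, whereas Tkt and Pgls are highest in OBC.

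Of the other lists, Bsg, the chaperone of the lactate carriers, was higher in OBC (0.73, SE 0.28, edgeR adjusted p = 0.0269), at 392 to 1231 CPM there and 231 to 751 in EC. Among 4 tested hypoxia and glycolysis regulators, Ndrg1, a hypoxia-induced gene, was higher in EC (0.90, SE 0.32, adjusted p = 0.0210, background higher 24.4%) and lower in OBC (-1.27, SE 0.44, adjusted p = 0.0162, background lower 26.8%; 0.0561 without OBC WT replicate 7). Epas1, the endothelial hypoxia-inducible factor, was higher in EC (0.65, SE 0.24, adjusted p = 0.0255), a call that ended without EC WT replicate 15 (0.0515), EC Wnt5a replicate 16 (0.107) or OBC Wnt5a replicate 11 (0.0574). Ddit4, a stress and hypoxia target that restrains mTOR, was lower in OBC (-1.82, SE 0.47, adjusted p = 0.00139) and higher in MSC (1.22, SE 0.34, adjusted p = 0.0244, background higher 4.82%). The MSC call ended with limma voom (0.0931) and without MSC WT replicate 2 (0.0899) or 3 (0.0615) or MSC Wnt5a replicate 6 (0.0907). Bnip3l, a mitophagy receptor also made by maturing red cells, was higher in OBC (1.11, SE 0.45, adjusted p = 0.0383). The part of red cells in the level of Bnip3l was not tested. The OBC calls of Bsg and of Bnip3l each ended in 14 of 24 alternatives, 9 of them with a library left out, with adjusted p up to 0.9999 for Bsg and 0.645 for Bnip3l. With 24.4% and 26.8% of all tested genes called, 2 of 4 regulators higher in EC and 2 of 4 lower in OBC are not read as particular to the list. Mdh2, the 1 tested citric acid cycle gene, was at 0.56 in OBC (SE 0.36, adjusted p = 0.202), and 0 genes of the 5 lists passed between genotypes in EC (background 0.364%), OBC (1.27%), MSC (0.455%), the mean over the populations (3.09%) or the interaction (0.546%). At an unadjusted p under 0.05 with edgeR there were 0 of the 9 in EC, 1 in OBC, 3 in MSC, 2 in the mean and 1 in the interaction. Of all 1099 genes tested, 89 in EC, 92 in OBC, 203 in MSC, 182 in the mean and 92 in the interaction were under it.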

How the data were processed

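Both deposited tables hold counts per Ensembl gene: reads of Smart-seq2 libraries for LSK, and UMIs for the niche, per the labels' protocols. The submitters' processing notes name STAR, featureCounts and mm10/GRCm38, with no versions. The sources used here do not give the annotation, strand, UMI collapsing or treatment of reads matching several places. The members and the gene lists were chosen with earlier results of these data known.

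Under R 4.3.3, the robust quasi-likelihood test of edgeR 4.0.16 was fitted to the counts after TMM scaling and the filterByExpr filter (minimum count 10, total 15), over 2 LSK groups or 6 niche groups, with Benjamini-Hochberg adjustment over all genes tested and a threshold of 0.05. Each SE was taken as the size of the log2 fold change over the root of its F statistic. The design foresaw the low-count filter for the niche; since no enzyme passed it, enzymes were tested without it. DESeq2 1.42.0, limma 3.58.1 voom, other scalings, filters and left-out libraries were alternatives. The 28 spike-in entries (at most 8 UMIs a library) stayed out of totals. Shared windows, exon lengths and coordinates come from GENCODE M21 (GRCm38). Single shares carry exact Clopper-Pearson intervals, pooled levels exact Poisson intervals (95%), and a count of 0 allows 3 counts; both cover counting error only. The fits were tested on simulated counts. Named genes were the 10 enzymes and, from 5 pathway lists, those past the test (at most 6 by p, or the 2 with the smallest p where none passed).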

Additional observations from a re-analysis of the deposited data

Results flagged for a closer look

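Among the 20 groups of LSK values tested for a single library far from the others (10 enzymes in 2 groups), 1 was found, where chance gives about 1 in 20. Eno1 in WT replicate 4 was at 38.0 CPM, while the other 5 WT libraries lay between 18.4 and 21.6 CPM, so that its gap took 0.838 of the range of the group. Without this library no enzyme was called in LSK cells.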

How the results depend on the processing

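In LSK cells 0 of 10 enzymes were called under every alternative run: other scalings, no filter, DESeq2, limma voom, the 9 libraries with 4-digit numbers, transcripts left out of the totals, summed copies, the length trend and each library left out. Over all genes the count of calls was 3 with edgeR, 51 with library totals alone, 343 without a filter, 655 with DESeq2, 0 with voom, 882 in the 9 libraries, 1 without mitochondrial, satellite and immunoglobulin transcripts, 144 with the length trend removed, and 0 to 1114 with 1 library left out (1114 without Wnt5a replicate 5); the cause was not tested. Library totals alone moved the median of all genes from 0.021 to -0.16, and that of the enzymes from 0.20 to 0.026.

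Pgam1, at 0.00022, turned to -0.0043 with median-of-ratios scaling, -0.17 with library totals, -0.032 without a filter, -0.0018 with DESeq2, -0.0040 without the named transcripts and -0.039 with copies, moved to 0.24 with the length trend removed, and ran from -0.055 to 0.041 with 1 library left out. Aldoa turned to -0.074 with totals and -0.024 in the 9 libraries, and ran from -0.026 to 0.22 with 1 left out. With copies Gpi1 turned to -0.15 and Gapdh to -0.18. With 1 library left out, Gpi1 ran from 0.082 (without Wnt5a replicate 1) to 0.30 (without Wnt5a replicate 5), Gapdh from 0.096 (without WT replicate 2) to 0.39 (without WT replicate 4), Pgk1 from 0.20 (without Wnt5a replicate 4) to 0.42 (without WT replicate 1) and Ldha from -0.33 (without Wnt5a replicate 4) to -0.15 (without WT replicate 4).

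For EC and for OBC against the other populations, the count of enzymes called was 0 of 0 tested with the filter, 2 of 10 without it (more genes tested), and 0 to 1 with the filter and 1 library left out. Without the filter and with 1 library left out it was 0 to 2 in EC and 1 to 2 in OBC. The difference of Pkm in OBC ran from -5.33 (without OBC WT replicate 8, when no OBC molecule is left) to -3.74. Without a filter the calls of Pgls in EC (-0.93, adjusted p = 0.0855), Bsg in OBC (0.18, adjusted p = 0.9999) and Bnip3l in OBC (0.56, adjusted p = 0.645) ended. For genotype in MSC, DESeq2 called 36 genes and voom 11, against 5 with edgeR.

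No paired analysis was made, because no replicate number recurs among the niche libraries and LSK labels pair no samples. All libraries were treated as independent, although whether EC, OBC and MSC libraries share animals is not given. Depth limits the niche: a count of 0 in an OBC library allows 139 to 323 CPM.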
